A study of Mus musculus with 3 samples.

Results

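The insulin-like growth factor family was followed through 3 two-colour arrays of mouse aorta RNA. The family was taken by name: Igf1 and Igf2, which encode both growth factors; Igf1r, which encodes their signalling receptor; and Igfbp1 to Igfbp7, which encode proteins that bind them or resemble those that do. Probes were included where the array's gene name, or the current symbol of the accession it lists, was 1 of these 10 genes. That gave 17 of the 41174 probes on the array. On each array, RNA of 1 individual Plk1(+/-) aorta was labelled with Cy5 and hybridised together with Cy3-labelled RNA pooled from 3 wild-type aortas. The mutant mice have a single intact copy of Plk1, the gene of a kinase that acts in mitosis. Animals of both genotypes were 3 to 5 months old and of a 129/CD1 strain. The 3 samples are labelled biological replicates. The labelling was never swapped, so dye and genotype cannot be told apart, and the single pool gives no spread between wild-type animals.

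Insulin-like growth factors are small secreted hormones related to insulin. Growth hormone drives Igf1 in many tissues, Igf2 is an imprinted gene most active before birth, and both factors signal through the receptor kinase Igf1r to survival and growth pathways. The binding proteins hold the factors in blood and tissue, which can keep them from the receptor or release them near it, and several also act on cells directly. In the vessel wall, smooth muscle cells and adventitial fibroblasts make and answer to several members of the family.

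Among the 60-base probes below, that of Igfbp2 carries the lowest ratio of the family, and those of Igf1 disagree with each other. Those of Igfbp3 and Igfbp4 do not stand for their genes and are shown as second readings of them. They were read from the scanner files 5′ to 3′, in lower case throughout since no stretch is singled out. Positions are those of the array design in build mm7. Exon and intron positions were not analysed here.
Igfbp2, chr1:73093964-73094023, plus strand: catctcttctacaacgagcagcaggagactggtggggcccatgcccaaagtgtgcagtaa
Igf1, designed on NM_184052, chr10:87471884-87471943, plus strand: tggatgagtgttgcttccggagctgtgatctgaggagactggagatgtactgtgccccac
Igf1, designed on AK050118, chr10:87420848-87420907, plus strand: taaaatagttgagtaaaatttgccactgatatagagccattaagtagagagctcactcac
Igfbp3, designed on NM_008343, chr11:7160474-7161483, minus strand: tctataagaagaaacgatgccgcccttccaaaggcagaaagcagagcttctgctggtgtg
Igfbp4, second probe, chr11:99157316-99157375, plus strand: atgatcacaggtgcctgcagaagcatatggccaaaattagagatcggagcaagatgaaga
The listed span of the Igfbp3 probe is 1010 bases for 60 bases of sequence, so its target lies in separated pieces of the genome. G and C make up 55.0% of the Igfbp2 probe and of the NM_184052 probe of Igf1, but 35.0% of the AK050118 probe.

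All values below are log2 ratios of the Plk1(+/-) sample over the pool after background correction and loess normalization within the array, unless a signal is named. Of the 10 genes, 9 had a probe that the scanner software called well above background, in Cy5 or in Cy3, on 2 or more arrays, and 8 of these had no saturated spot on the probe of highest intensity, which stands for the gene. Igfbp1 was too dim and Igfbp7 was saturated in Cy5. The family was selected on earlier log2 ratios of these same arrays, among them the low ratio of Igfbp2, so its ratios are a description and carry no test. Of the 8 genes, 6 had a mean ratio below 0 under loess, against 40.5% of all unsaturated features (2 under median centring), and the same 6 were below 0 on all 3 arrays, against 17.9% of those features. The remaining 2, Igf1 and Igfbp3, differed in sign between samples, and 0 of 8 were above 0 on all 3 arrays, against 26.8% of all unsaturated features. Under median centring, 2 of 8 were below 0 on all 3 arrays, against 21.2% of unsaturated features, and 4 of 8, Igf1, Igf2, Igfbp4 and Igfbp6, were above 0 on all 3, against 52.3%. The median of the 8 was -0.26, -0.19 and -0.29 in samples 1, 2 and 3, beside 0.04, 0.01 and 0.04 over all unsaturated features.

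**Figure D1:**
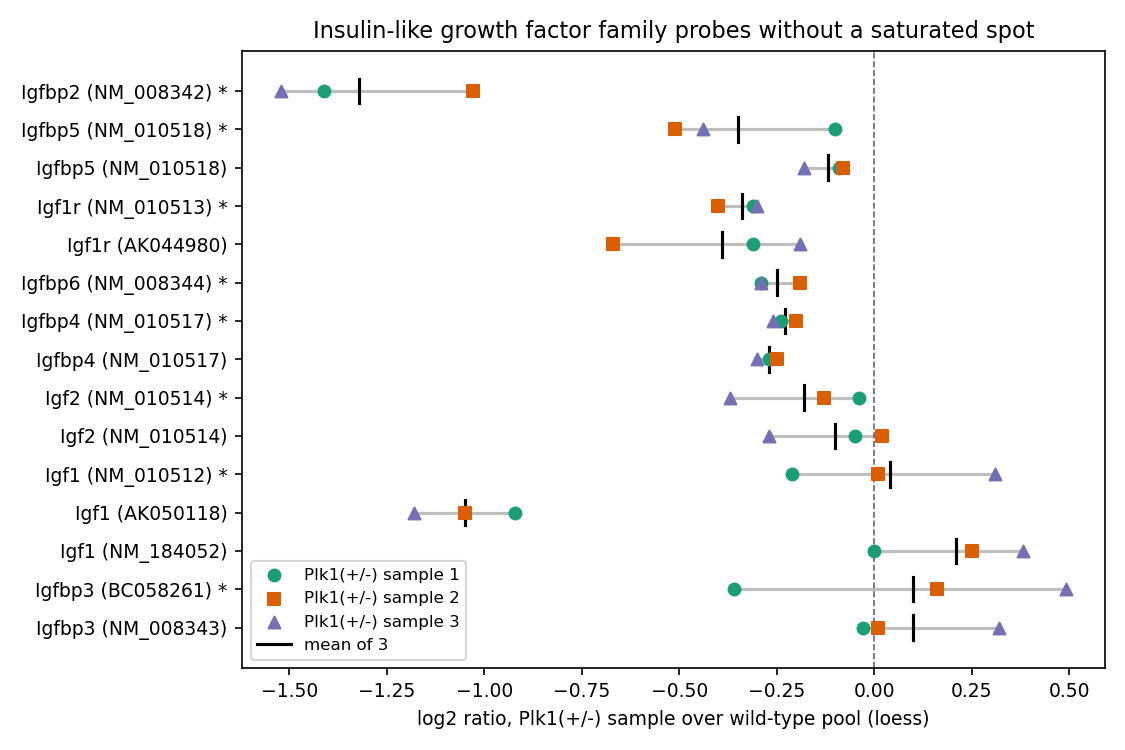
Log2 ratio of each Plk1(+/-) sample over the wild-type pool for the 15 kept probes without a saturated spot, with the mean of the 3 samples as a bar. An asterisk marks the probe that stands for its gene. Igfbp2 lies between -1.52 and -1.03, and Igf1 and Igfbp3 spread across 0.

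In order of mean ratio under loess, from low to high, the genes were Igfbp2, Igfbp5, Igf1r, Igfbp6, Igfbp4, Igf2, Igf1 and Igfbp3. Igfbp2 stood 0.97 ± 0.41 below Igfbp5 (SD over 3 arrays), and their samples did not overlap. Igf1r lay 0.08 ± 0.11 below Igfbp6, without overlap but by less than the SD of that difference. The samples of the other 5 pairs of neighbours overlapped, so their order is within the spread between samples.

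Igfbp2, a binding protein with a preference for Igf2 that is also secreted by fat and liver, had the lowest ratio of the family. Its normalized signal was 240, 303 and 202 in Plk1(+/-) samples 1, 2 and 3, against 638, 619 and 580 in the pool on the same arrays. All 3 samples lay below each reading of the pool. The log2 ratios were -1.41, -1.03 and -1.52, a mean of -1.32 ± 0.26 (SD, n = 3), or 2.5-fold lower. It was the 1 of 8 family genes with a mean at or below -1, against 0.752% of unsaturated features. Igfbp2 was also the 1 of 9 tested family genes, the saturated Igfbp7 included, past an adjusted p of 0.05 in limma. That share was 0.924% over all features and 0.149% over unsaturated ones. Of the 8 unsaturated family genes, 5 had an unadjusted p under 0.05, beside 17.8% of unsaturated features. Nothing is read from these counts, since the choice of the family used the same ratios. Its adjusted p was 0.0361, and 0.0787, 0.155 and 0.131 without samples 1, 2 and 3, so that call rested on having all 3 samples. It also ended with saturated features left out (0.223), with the scanner software's own ratio (0.0766) and with the authors' series values (0.062).

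Among 17606 other named, unsaturated features, the 5 whose ratios on the 3 arrays lay nearest to those of Igfbp2 were Ccn1, Fndc5, Slc4a1, Phlda1 and Tcap, at Euclidean distances of 0.10, 0.34, 0.44, 0.60 and 0.61 on the log2 scale. Ccn1, which encodes a matricellular protein, read -1.32 in sample 1 and -1.49 in sample 3 and, as Igfbp2 did, was least low in sample 2. Tcap, which encodes a protein of the striated muscle sarcomere, read -0.80, -0.98 and -1.43. For Igfbp3, at the other end of the family, the nearest were Tmem120a, Dbx1, Agap2, Man1a and Accsl, at distances of 0.02 to 0.10. Likeness over 3 arrays is a loose measure.

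Igfbp2 and Igfbp5 are neighbours on chromosome 1 on opposite strands, with 6092 bases between their nearest probes in mm7. Igfbp5, the most conserved of the binding proteins and abundant in muscle, gave signals of 10100, 7330 and 7710 in the Plk1(+/-) samples, against 10800, 10500 and 10400 in the pool. The mean ratio was -0.35 ± 0.22 (SD, n = 3), with sample 1 at -0.10 and samples 2 and 3 at -0.51 and -0.44. Under median centring the mean turned to 0.13, with 0.39, -0.07 and 0.07 in the 3 samples. The difference of Igfbp2 minus Igfbp5 was -1.31, -0.52 and -1.08 in the 3 samples. A second, much dimmer probe of Igfbp5 read -0.09, -0.08 and -0.18, so the low values of samples 2 and 3 were seen with 1 of its 2 probes.

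Of the ligands, Igf1 differed between the Plk1(+/-) samples, and the sign of its ratios depended on the scaling. Its main probe was printed 10 times on each array. The signals were 2460, 3210 and 3490 in samples 1, 2 and 3, against 2840, 3190 and 2810 in the pool. Under loess, sample 1 was below the pool on its array, sample 2 level with it and sample 3 above it. The ratios of -0.21, 0.01 and 0.31 had a mean of 0.04 ± 0.26 (SD, n = 3). Under median centring all 3 samples were above the pool, at 0.21, 0.39 and 0.79, a mean of 0.46, with the same order of samples. Single spots under loess ranged from -0.27 to -0.17 in sample 1 (8 spots, 2 being left out as outliers), from -0.05 to 0.05 in sample 2 and from 0.25 to 0.36 in sample 3. The SD between spots was 0.03 to 0.04, and the spots of the 3 samples did not overlap. These spots repeat 1 hybridisation per sample, so their spread leaves out differences between labellings and arrays. A probe designed on another transcript, NM_184052, lies 17038 bases before the main probe and ordered the samples alike, at 0.00, 0.25 and 0.38.

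The remaining Igf1 probe disagreed with both. It was designed on AK050118, which the array names as a cDNA from liver tumour and lists under Igf1, and lies 50976 bases further upstream. Its signals were 148, 153 and 132 in the Plk1(+/-) samples, against 280, 316 and 300 in the pool. This probe was dim in the samples, at 218, 245 and 211 before normalization. The medians of all probe spots in Cy5 were 335, 357 and 337. All 3 samples were low, with ratios of -0.92, -1.05 and -1.18 and a mean of -1.05 ± 0.13 (SD, n = 3). The authors' series values for this probe were lower still, at -1.55, -1.57 and -1.83. Averaged over its 3 probes, Igf1 read -0.27 in place of 0.04, so the sign of the gene's mean depends on which probes are read. Which transcript this probe measures was not tested.

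Igf2 also had a probe printed 10 times. Its signals were 1480, 1500 and 1100 in the Plk1(+/-) samples, against 1520, 1640 and 1420 in the pool. Sample 3 was lowest, at a ratio of -0.37, while samples 1 and 2 read -0.04 and -0.13. The mean was -0.18 ± 0.17 (SD, n = 3), and 0.20 under median centring. Spots ran from -0.11 to 0.05 in sample 1, from -0.18 to -0.05 in sample 2 and from -0.47 to -0.29 in sample 3, with SDs between spots of 0.04 to 0.06. The spots of sample 3 did not overlap those of the other samples, again with 1 array per sample. A second Igf2 probe read -0.05, 0.02 and -0.27, again lowest in sample 3. The difference of Igf1 minus Igf2 was -0.17, 0.14 and 0.68 in the 3 samples.

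**Figure D2:**
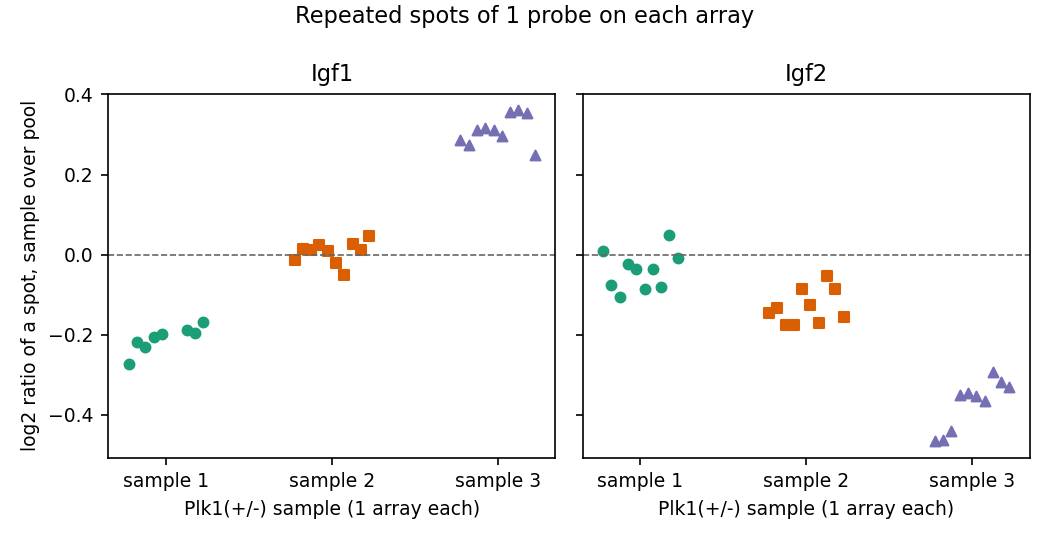
Log2 ratio of each spot of the Igf1 probe (left) and the Igf2 probe (right) printed 10 times per array, by Plk1(+/-) sample, with outlier spots left out. Igf1 spots of sample 3 lie between 0.25 and 0.36 and Igf2 spots of the same sample between -0.47 and -0.29.

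Igf1r, the receptor kinase for both ligands, read evenly low. Its signals were 339, 429 and 429 in the Plk1(+/-) samples, against 421, 564 and 528 in the pool. Each sample was below the pool on its own array, although sample 2 and sample 3 exceeded the pool's reading on array 1. The ratios were -0.31, -0.40 and -0.30, a mean of -0.34 ± 0.05 (SD, n = 3), and -0.10 under median centring. A second probe gave -0.31, -0.67 and -0.19. It was dimmer, at signals of 137, 103 and 130 in the samples, though called well above background on all 3 arrays.

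Among the other binding proteins, Igfbp3, the main carrier of the factors in blood, varied most between samples. Its signals were 748, 1220 and 1540 in the Plk1(+/-) samples, against 960, 1090 and 1090 in the pool. Sample 1 was below the pool and samples 2 and 3 above it, with ratios of -0.36, 0.16 and 0.49 and a mean of 0.10 ± 0.43 (SD, n = 3). Without sample 3 the mean turned to -0.10. Under median centring the ratios were -0.05, 0.48 and 0.91, a mean of 0.45, again lowest in sample 1 and highest in sample 3. The Igfbp3 probe shown above read -0.03, 0.01 and 0.32, which keeps sample 3 highest at a smaller size. Igf1 minus Igfbp3 was 0.15, -0.15 and -0.18 in the 3 samples, and both genes had sample 1 lowest and sample 3 highest.

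Igfbp4, which mostly restrains the factors, gave 1670, 1800 and 1680 in the Plk1(+/-) samples, against 1980, 2070 and 2010 in the pool. Every sample was below every reading of the pool, and the samples hardly differed. The ratios of -0.24, -0.20 and -0.26 had a mean of -0.23 ± 0.03 (SD, n = 3), and the second probe, printed above, read -0.27 ± 0.03. Igfbp6, which prefers Igf2, gave 9290, 10000 and 8860 in the Plk1(+/-) samples, against 11400, 11400 and 10800 in the pool. Its ratios of -0.29, -0.19 and -0.29 had a mean of -0.25 ± 0.06 (SD, n = 3). Both genes were thus slightly and evenly lower under loess, but their means turned to 0.16 and 0.23 under median centring.

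Igfbp7 and Igfbp1 could not be measured as ratios. Igfbp7, a vessel-wall protein that binds the growth factors weakly, was at the scanner's limit in Cy5 on all 3 arrays, with a mean signal of 65200 in each Plk1(+/-) sample, against 35900, 55800 and 34300 in the pool before normalization. The true Cy5 signal may be higher, so no ratio is given. Igfbp1, a liver product regulated by insulin, gave 101, 163 and 94.6 in the Plk1(+/-) samples, against 83.7, 67.3 and 71.7 in the pool before normalization. It was well above background in 1 of 3 Plk1(+/-) samples, sample 2, and in 0 of 3 pool readings. Of 10 liver markers, 8 were kept, Ttr and Serpina1a were not, and their medians of -1.25, 1.12 and -0.96 were also highest in sample 2. Their part in the Igfbp1 reading was not tested.

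**Figure D3:**
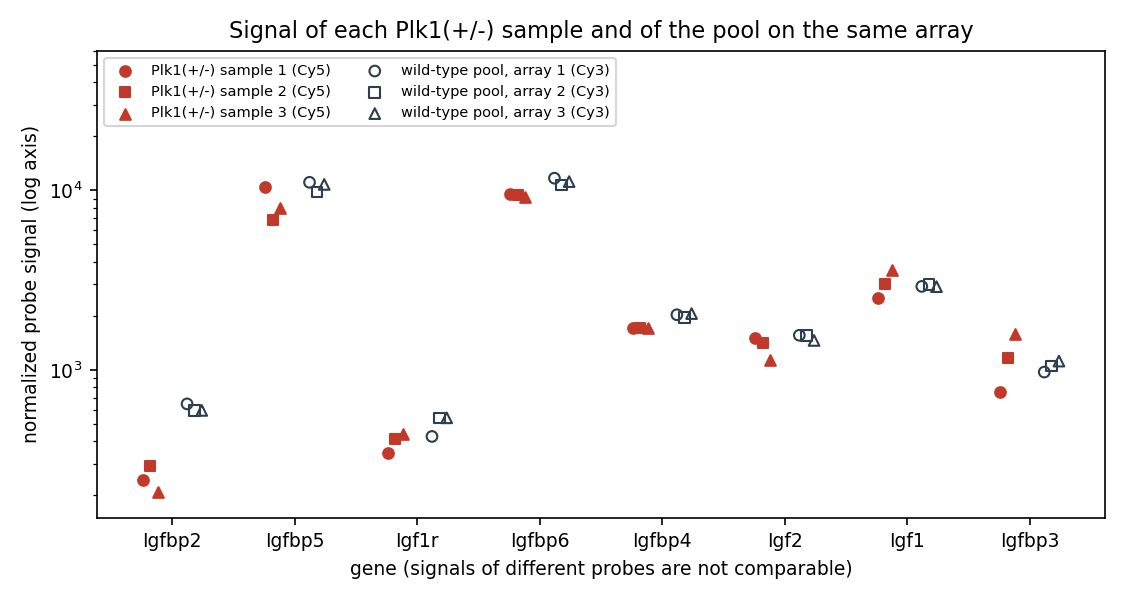
Normalized signal of the 3 Plk1(+/-) samples (filled, left) and of the same wild-type pool on the 3 arrays (open, right) for 8 genes, on a log axis, after scaling the arrays to each other. Igfbp4 is nearly the same in all 3 samples, while Igfbp3 runs from 758 to 1580 in the samples and from 973 to 1120 in the pool.

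The pool was hybridised on every array, so its spread there is technical, whereas that of the Plk1(+/-) samples also holds differences between animals and, since the samples are always in Cy5, between dyes. With the arrays scaled to each other, 5 of 8 family genes had the larger SD in the samples, as had 73.2% of unsaturated features. Igfbp3 had an SD of 0.53 in log2 signal over the samples, against 0.10 over the pool readings. For Igf1 the SDs were 0.26 in the samples and 0.02 in the pool, for Igfbp5 0.30 and 0.10, for Igfbp2 0.24 and 0.07, and for Igf2 0.22 and 0.05. Igf1 and Igf2 are averages over a probe printed 10 times, while the other family genes have 1 spot per array. The SDs of Igf1 and Igf2 are thus not directly comparable with the rest. Igfbp4, at 0.01 and 0.04, and Igfbp6, at 0.03 and 0.06, varied as little over the samples as over repeats of the pool, and Igf1r, at 0.19 and 0.20, varied alike in both. The medians over all unsaturated features were 0.17 in the samples and 0.10 in the pool.

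How the arrays were scaled set the sign of the smaller differences. Median centring moved the median of all features to 0.23, from 0.04 under loess. It left 2 family genes below 0, Igfbp2 at -1.11 and Igf1r at -0.10, and put Igf2, Igfbp4, Igfbp5 and Igfbp6 above it. Relative to the median of all features, Igfbp2 read -1.36 under loess and -1.33 under median centring, and Igf1r read -0.37 and -0.32. Igfbp5 read -0.38 under loess and -0.10 under median centring on that relative scale, and Igf2, Igfbp4 and Igfbp6 came to between -0.06 and 0.00. The authors' series values gave -1.65 for Igfbp2 and put the same number of genes, 6, below 0.

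**Figure D4:**
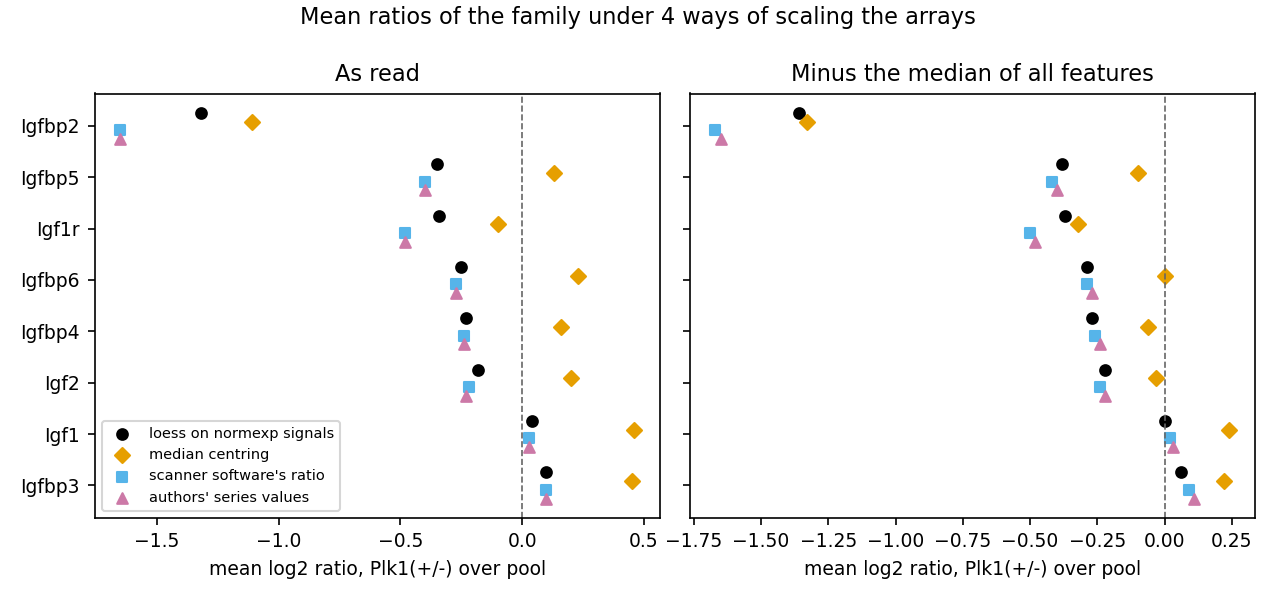
Mean log2 ratio of 8 genes under 4 ways of scaling the arrays, as read (left) and after subtracting the median of all features (right). Igfbp2 is at or below -1.11 in every one of the 4, while the other negative genes except Igf1r cross 0 with median centring as read.

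Fewer cells of a type and less RNA per cell cannot be told apart in these whole-vessel samples. All 10 smooth muscle markers were kept, 4 of them on saturated probes. Their summed signal was 167000 to 209000 in the Plk1(+/-) samples, against 421000 to 476000 in the pool. Saturated spots numbered 574 to 627 per array in Cy5, against 66 to 104 in Cy3. Sums that hold saturated markers may thus be too low in the samples, and the size of such gaps is not read. On unsaturated probes the smooth muscle medians were -0.39, -1.04 and -0.95 in samples 1, 2 and 3. Igfbp5 likewise read nearest to 0 in sample 1. All 10 adventitial fibroblast markers were kept, 9 of them on unsaturated probes. Their medians were -0.31, -0.42 and -0.33, beside the even values of Igfbp4, Igfbp6 and Igf1r under loess. Under median centring the median over all 10 of these markers was -0.03, and Igfbp4 and Igfbp6 were above 0. The medians of 10 lymphocyte markers, 0.14, 1.09 and 1.65, had the order of Igf1 and Igfbp3, with summed signals of 24800 to 65000 in the samples, against 18600 to 21800 in the pool. The medians of skeletal muscle markers, 8 of 10 being unsaturated, were -0.69, -0.95 and -2.95, lowest in sample 3, as Igf2 was. Their sums, with saturated markers included, were 41000 to 194000 in the samples, against 313000 to 380000 in the pool. Endothelial markers, with medians of 0.05, -0.06 and -0.18, also had the order of Igf2. White fat markers summed to 292000 to 307000 in the samples, against 622000 to 685000 in the pool. As 7 of the 10 were saturated, this sample sum may be too low. The medians of the 3 unsaturated ones were 0.06, 0.16 and -0.65. Brown fat markers had medians of -0.18, 0.39 and 0.10, and macrophage markers of -0.06, -0.13 and 0.17. Schwann cell markers had 0.54, 0.17 and 0.17, and mesothelium markers -0.39, 0.37 and 0.03. With 11 marker lists and only 3 samples a shared order is easily met, so nothing is read from it. The part of these cell types in the family's ratios was not tested. Plk1 itself read -0.06, -0.08 and 0.42, and whether its probe lies in the interrupted part of the allele is not stated in the sources used here.

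Other genes that carry, cut or answer to insulin-like growth factors were counted from 4 lists of 53 genes, of which 51 were measured, all without a saturated spot. In limma over all features, 2 of the 51 fell, against 0.888% of all features and 0.111% of unsaturated ones called lower. Of the 51, 0 rose, against 0.0362% of all features and 0.0371% of unsaturated ones called higher. These directions depended on the scaling: under median centring 19 of the 51 were called higher, against 32.4% of all features, and 4 lower, against 11.9%. Cish, at -2.70, and Pik3r1, at -0.59, were among the 4. The 2 were Cish and Pik3r1, both known from earlier results of these arrays. At an unadjusted p under 0.05, 6 of the 51 were lower, against 8.49% of unsaturated features, and 1 was higher, against 9.33%. The median of the 51 was 0.01, beside 0.04 over all unsaturated features.

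**Figure D5:**
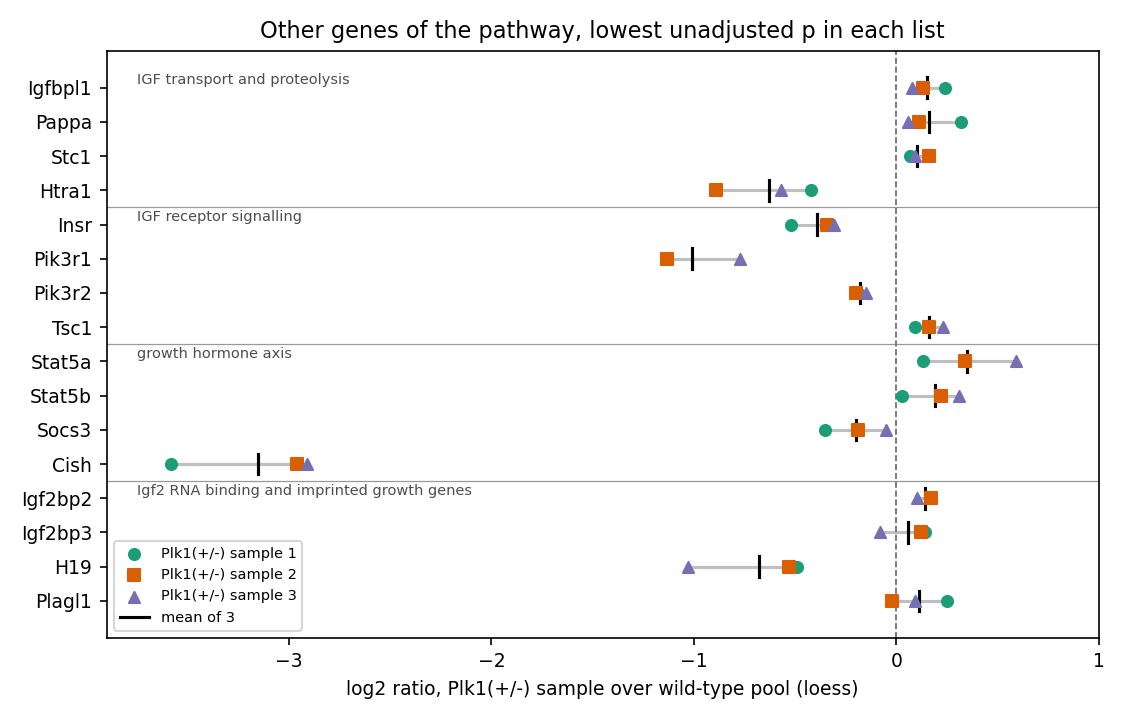
Log2 ratio of each Plk1(+/-) sample over the pool, with the mean as a bar, for the 4 genes of lowest unadjusted p in each of 4 lists of other insulin-like growth factor (IGF) pathway genes. Cish lies between -3.58 and -2.91, Pik3r1 between -1.13 and -0.77.

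Of 9 genes for transport and cleavage of the factors, 0 passed over all features, and 1 was lower at an unadjusted p under 0.05. That was Htra1, a secreted protease known in human cells to cut binding proteins, at -0.42, -0.89 and -0.57, a mean of -0.63 ± 0.24 (SD, n = 3; limma adjusted p = 0.149). Pappa, the protease that frees the factors from Igfbp4, read 0.16 ± 0.13, its inhibitor gene Stc1 0.10 ± 0.05 and Igfbpl1 0.15 ± 0.08. Under median centring Stc1 turned to -0.20 and Igfbpl1 to -0.06, and Htra1 read -0.13. With that scaling 1 gene of the list was called higher, against 32.4% of all features, and 1 lower, against 11.9%. Igf2r, which clears Igf2, read 0.03, 0.03 and -0.04, and Igfals, the partner of Igfbp3 in blood, -0.25, -0.05 and 0.17; both were chosen after their values were seen.

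Of 23 measured receptor signalling genes, Pik3r1 fell, and 0 rose under loess. Under median centring 12 were called higher, against 32.4% of all features, and Pik3r1 alone lower, against 11.9%. Pik3r1 encodes the main regulatory subunit of phosphoinositide 3-kinase and read -1.13, -1.13 and -0.77, a mean of -1.01 ± 0.21 (SD, n = 3; limma adjusted p = 0.0489). Its 3 further probes read -0.63, -0.55 and -0.41, and the call ended when all its probes were averaged (0.0504), with the scanner software's ratio (0.0962), with the authors' series values (0.0785), without sample 1 (0.0918), sample 2 (0.378) or sample 3 (0.0838), and without saturated features (0.223). The insulin receptor gene Insr read -0.39 ± 0.11, close to Igf1r in size, with a second probe at -0.06. Pik3r2 read -0.18 ± 0.03 and Tsc1, a brake on mTOR, 0.16 ± 0.07. Under median centring Insr read 0.01, Pik3r2 turned to 0.23, and Tsc1 read 0.46 and was among those called.

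Of 9 growth hormone axis genes, Cish fell, and 0 rose under loess. Under median centring 3 of the 9 were called higher, against 32.4% of all features, and Cish alone lower, against 11.9%. The 3 were Ghr (0.68), the growth hormone receptor gene, Stat5a (0.78) and Stat5b (0.66). Cish, a target of growth hormone and cytokine receptors that damps their signal, read -3.58, -2.96 and -2.91 (limma adjusted p = 0.00928), a call that ended without sample 2 (0.154), without sample 3 (0.071) and without saturated features (0.162). The transcription factor genes Stat5a and Stat5b, which drive Igf1 and Cish, read 0.35 ± 0.23 and 0.19 ± 0.14, and Socs3 read -0.20 ± 0.15 (SD, n = 3 each; 0 of these 3 past the adjusted threshold under loess). Socs3 turned to 0.20 under median centring.

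Of 10 measured Igf2 RNA-binding and imprinted growth genes, 0 passed over all features, and 1 was lower at an unadjusted p under 0.05. That was H19, the noncoding RNA gene beside Igf2 that is expressed from the other parental allele, at -0.49, -0.53 and -1.03, a mean of -0.68 ± 0.30 (SD, n = 3; limma adjusted p = 0.16), with a second probe at -0.69. H19 was lowest in sample 3, as Igf2 was. Igf2bp2 read 0.14 ± 0.04, Igf2bp3 0.06 ± 0.12 and Plagl1 0.11 ± 0.14. Under median centring H19 read -0.37 and Igf2bp3 turned to -0.28. With that scaling 3 genes, among them Igf2bp2 (0.32) and Plagl1 (0.45), were called higher, against 32.4% of all features, and 1 lower, against 11.9%.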

How the data were processed

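The scanner files hold spot intensity values, which the authors deposited unaltered from the scanner software (Agilent Feature Extraction; the headers give version 9.5.3.1). Mean signals in them are neither background-subtracted nor normalized. The deposited log ratio is log10 of processed Cy5 over Cy3, per the file headers, and was turned to log2. The authors' series values are log2 ratios for 28817 probes, with slopes of 0.997 to 0.999 and medians of -0.032 to -0.005 against the scanner ratios, so scale and direction are known and the centring is not stated. The labels' growth protocol describes embryonic stem cells, and the tissue label was followed.

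Mean signals were corrected with normexp (offset 50, local median background) and loess-normalized within arrays, giving control spots a weight of 0 (limma 3.58.1, R 4.3.3). Outlier spots (136, 109 and 100) were left out, spots of a probe were averaged, and probes were kept where 2 or more of the 3 arrays had them well above background in Cy5 or Cy3. That was the case for 66.0% to 69.0% of spots in Cy3 and 77.0% to 80.8% in Cy5. The brightest probe stood for a gene, giving 22074 features, 21545 without a saturated spot. Names came from GRCm38.p6: 22951 probes by accession, 6659 current, 3109 by synonym and 8455 as in the files. Ratios were tested against 0 (lmFit, eBayes, two-sided, Benjamini-Hochberg), and the fit was tested on simulated data. Members and lists were chosen with earlier results of these data known. Genes named were the family, up to 4 per list by unadjusted p, Plk1, and the 5 nearest features to the family's lowest and highest genes. Only 3 arrays limit the precision. Alternatives covered scaling, background, filter, probes, saturation, variance model and each sample.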

Additional observations from a re-analysis of the deposited data

How the results depend on the processing

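No paired analysis was possible because 1 group of 3 samples was set against 1 pool. Limma called 204 features and 2 of 51 pathway genes. These counts were 9781 (7159 higher and 2622 lower, in place of 8 and 196) and 23 (19 higher and 4 lower, in place of 0 and 2) with median centring, 117 and 1 with the scanner software's ratio, and 0 and 0 without saturated features (3817 features had an unadjusted p under 0.05). All kept probes of a gene averaged gave 143 features and 1 pathway gene, and array weights gave 433 features. Leaving out 1 sample gave 0 to 175 features and 0 to 1 pathway genes, with 0 calls without sample 2 or sample 3 and 1984 and 3103 features at an unadjusted p under 0.05. Median centring left 2 of 8 family genes with a mean below 0, in place of 6, and the family's median turned to 0.18 from -0.24. Without 1 sample the number below 0 was 6 to 8 and the median -0.26 to -0.23. Of 80 values of single family genes under alternatives, 69 moved by less than 1 SD and 7 changed sign. These were Igf2, Igfbp4, Igfbp5 and Igfbp6 with median centring, Igf1 with its probes averaged, and Igf1 and Igfbp3 without sample 3. The 80 values are not separate checks. Leaving out saturated features could not move these 8 genes, and dropping the filter on dim probes left every mean unchanged. The scanner software's ratio and the authors' series values gave nearly the same means. Igfbp2 stayed between -1.65 and -1.11 in all 10 alternatives run on its ratio. The cause of these shifts was not tested. Signal near background limits Igfbp1, and saturation limits Igfbp7.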

Other observations

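The array holds 2 further probes under older clone names that the gene listing gives as synonyms of Igf1r, which encodes the receptor kinase. They fell outside the choice by name and lie on chromosome 7 at 64088091 to 64088150 and at 64083593 to 64083652 of mm7, with 5382 and 884 bases between them and the main Igf1r probe. The brighter, A330103N21Rik, had signals of 914, 947 and 869 in the Plk1(+/-) samples, against 1090, 1600 and 1110 in the pool, and ratios of -0.26, -0.76 and -0.36. The dimmer, D930020L01, read -0.36, -0.29 and -0.27. Both were below 0 in all 3 samples under loess, as both named Igf1r probes were. Under median centring A330103N21Rik read 0.07, -0.43 and 0.03, while D930020L01 read -0.63, -0.56 and -0.60. With that scaling the main Igf1r probe read -0.11, -0.17 and -0.01, and its second probe -0.44, -0.83 and -0.35. Foxo1, a transcription factor gene held in check by this pathway and chosen after its values were seen, read -0.50, 0.24 and 1.07, under loess, lowest in sample 1 and highest in sample 3 as Igf1 and Igfbp3 were, with a limma adjusted p of 0.659.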
